A study of Mus musculus with 10 samples.

Results

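Prostaglandins and nitric oxide are short-lived mediators whose synthesis is switched on in inflamed tissue. The cyclooxygenases, encoded by Ptgs1 and Ptgs2, turn arachidonic acid into prostaglandin H2, from which terminal synthases make prostaglandin E2 (Ptges) or prostacyclin (Ptgis). Prostaglandin E2 acts through cell-surface receptors, among them EP2 (Ptger2) and EP4 (Ptger4), and is degraded by 15-hydroxyprostaglandin dehydrogenase (Hpgd). Nos2 encodes the inducible nitric oxide synthase, which makes nitric oxide from arginine. In bone, prostaglandin E2 made by osteoblasts is known to act on bone formation and, through osteoclasts, on bone resorption.

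These 8 genes were chosen by symbol, and of the probe sets annotated with that symbol alone the brightest on average was used. A probe set was found for 7 of the 8, out of 19938 genes measured. Ptgs1 is not paired with a probe set in the annotation used and was not analysed here. Each of the 7 genes had 1 probe set.

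RNA came from osteoblastic lineage cells (OBCs), sorted from bone after collagenase digestion using stains for CD51, CD45, CD31, Sca-1 and lineage antigens, with 1 mouse per array. There were 5 BA mice, of genotype Scl-tTA::TRE-BCR/ABL on C57BL/6, which develop a myeloproliferative neoplasm, and they were set against 5 age-matched control mice of the same strain, whose own genotype the labels do not give. Both groups were withdrawn from the drug doxycycline at 5 weeks of age and bones were taken 5 to 6 weeks later. The tTA transactivator drives BCR/ABL only without doxycycline and is itself under the Scl promoter, which is active in blood stem and progenitor cells. The bone cells measured are thus not the cells that promoter is used to target. RNA from 500 to 2300 cells per mouse was amplified and hybridised to Affymetrix mouse Gene ST 1.0 arrays.

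Levels are given on the log2 scale, on which a difference of 1 is a doubling. A level also depends on how well a probe set binds, so each gene is compared between arrays and not with other genes. Within that limit, osteoblast and cartilage markers were bright, with 6 of 7 measured osteoblast markers and 6 of 6 chondrocyte markers above the array median on all 10 arrays, against 3 of 11 pan-haematopoietic, 3 of 11 macrophage and 1 of 9 endothelial markers. Of the other lists, 6 of 12 neutrophil markers and 6 of 8 smooth muscle and pericyte markers were also above the median on all 10 arrays. Between the groups, 5 of 7 osteoblast markers were lower and 2 higher in BA cells, with a mean difference of -0.35. All 6 chondrocyte markers were higher, with a mean difference of 0.23, where 37.9% of all genes were higher. Leukocyte markers were not evenly spread. BA replicate 5 had means of 7.59 for macrophage and 8.35 for pan-haematopoietic markers, against control ranges of 5.81 to 6.28 and 5.65 to 7.04. On BA replicate 1 these means were 6.71 and 6.68. BA replicate 5 had 10 of 11 macrophage and 8 of 11 pan-haematopoietic markers above every control array, and BA replicate 1 had 6 of 11 and 2 of 11. The share of all genes above every control array was not counted for single arrays, so these counts have no background. In sorted bulk samples, fewer cells of a type and less RNA per cell cannot be told apart.

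Setting BA against control mice asks how expression in bone-lining cells differs with the blood disease. Ptgs2, Nos2 and Hpgd were higher on average in BA cells, by 3.05-fold, 3.49-fold and 1.67-fold, while Ptges, Ptgis, Ptger2 and Ptger4 had average differences of at most 0.24 log2 units in size. After adjustment over all genes 0 of the 7 genes passed a threshold of 0.05 (limma), as against 0.00502% of all genes (1 gene). At an unadjusted p under 0.05, 3 of 7 were higher and 0 lower, where 4.13% of all genes were higher and 5.27% lower. The 7 genes were chosen with earlier results of these data known, so these shares are a description and no test of the set. The median difference was 0.24 for the 7 genes and -0.06 for all genes. The groups overlapped for all 7 genes, and were apart for 1.67% of all genes.

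**Figure D1:**
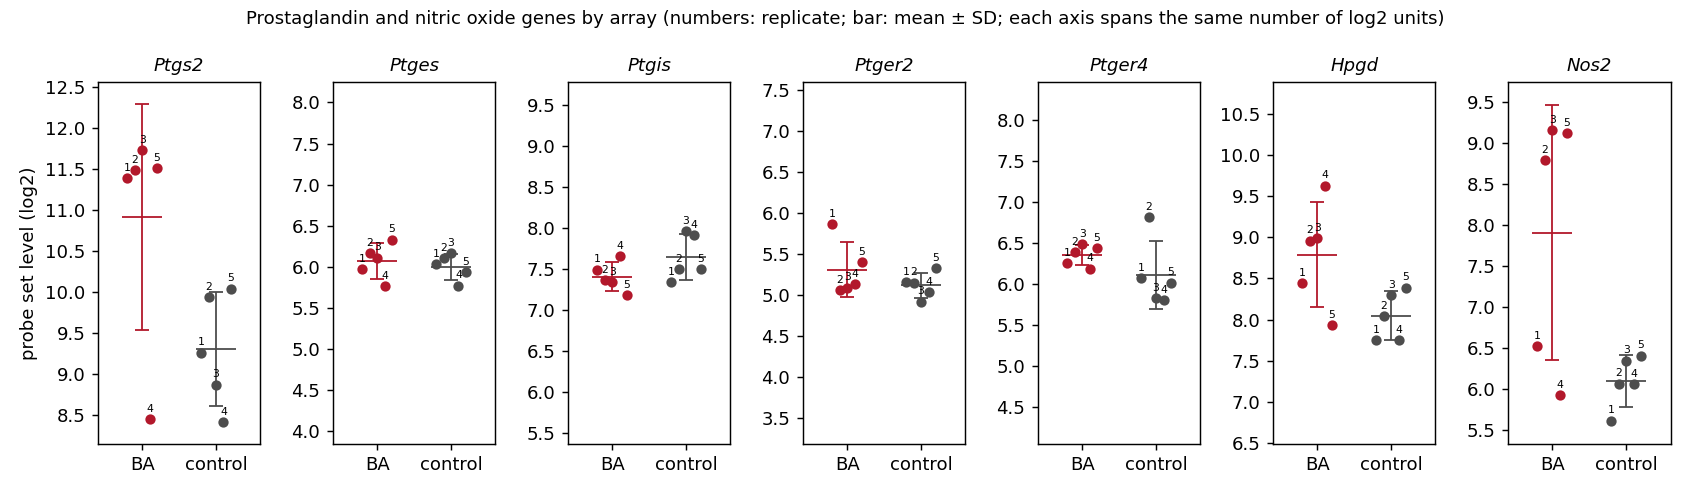
Level of each of the 7 genes (log2, 1 panel per gene, each axis covering the same span) on the BA arrays (red, left) and the control arrays (grey, right), with replicate numbers and the mean ± SD. Ptgs2 and Nos2 spread widely among BA arrays, and BA replicate 4 lies at 8.45 for Ptgs2 and 5.93 for Nos2, while Ptges stays between 5.76 and 6.33 on all 10 arrays.

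Ptgs2 encodes the inducible cyclooxygenase COX-2. Its level was 11.39, 11.48, 11.73, 8.45 and 11.51 on BA arrays 1 to 5, and 9.26, 9.94, 8.87, 8.41 and 10.04 on control arrays 1 to 5. BA arrays 1, 2, 3 and 5 thus lay within a narrow band above every control array, and BA replicate 4 lay at the bottom of the control range. The means were 10.91 ± 1.38 in BA cells and 9.30 ± 0.70 in control cells (SD, n = 5 each). They differed by 1.61 ± 0.61 (SE), or 3.05-fold, with a 95% interval of 1.19 to 7.81 (adjusted p = 0.499, limma). Without BA replicate 4 the difference was 2.22, with an adjusted p of 0.058 that still missed the threshold. That array stood out by its Ptgs2 level, so that leaving it out had to raise the difference. Ptgs2 was also variable among control mice, from 8.41 to 10.04.

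The promoter windows of Ptgs2 and of its functional partners Ptges and Hpgd, the enzymes that make and degrade prostaglandin E2, are shown because the 3 genes act in sequence on the same lipid. Each window runs from 250 bases before to 50 after the gene start, 5′ to 3′ on the gene's own strand, and comes from RefSeq on GRCm38.p6, at chr1:150099781-150100080 (plus strand), chr2:30903248-30903547 (minus strand) and chr8:56294302-56294601 (plus strand). Capitals mark matches on either strand to the TATA box TATAAA, the cyclic AMP response half-site CGTCA, the E-box CACGTG, the C/EBP motif TTGCNNAA and the GC box GGGCGG. A degenerate kappaB motif was searched as well.
Ptgs2: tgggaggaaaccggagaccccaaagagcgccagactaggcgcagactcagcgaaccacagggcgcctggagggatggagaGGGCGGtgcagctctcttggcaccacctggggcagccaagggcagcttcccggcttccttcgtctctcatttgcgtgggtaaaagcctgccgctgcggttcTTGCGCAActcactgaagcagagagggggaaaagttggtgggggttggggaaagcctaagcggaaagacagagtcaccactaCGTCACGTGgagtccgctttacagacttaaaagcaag
Ptges: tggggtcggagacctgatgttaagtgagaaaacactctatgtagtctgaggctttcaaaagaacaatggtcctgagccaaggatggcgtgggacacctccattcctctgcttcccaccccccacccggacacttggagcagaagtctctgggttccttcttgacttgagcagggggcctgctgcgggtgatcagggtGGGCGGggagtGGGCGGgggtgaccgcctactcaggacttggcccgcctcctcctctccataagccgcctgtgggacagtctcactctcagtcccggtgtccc
Hpgd: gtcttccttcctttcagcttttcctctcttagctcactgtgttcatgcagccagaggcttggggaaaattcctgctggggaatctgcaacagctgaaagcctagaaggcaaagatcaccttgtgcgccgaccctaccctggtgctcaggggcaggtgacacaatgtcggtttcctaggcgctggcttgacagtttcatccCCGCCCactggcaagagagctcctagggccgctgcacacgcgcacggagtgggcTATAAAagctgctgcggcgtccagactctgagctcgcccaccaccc

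In the Ptgs2 window the half-site and the E-box overlap, at bases 264 to 268 and 267 to 272 counted from its 5′ end. Both lie after the annotated gene start, beginning at positions 14 and 17. The C/EBP motif lies at bases 182 to 189 and a GC box at bases 81 to 86. The Ptges window holds a pair of GC boxes, at bases 198 to 203 and 209 to 214. The Hpgd window holds a match to the TATA box at bases 255 to 260 and, on the opposite strand, a GC box at bases 201 to 206. That TATA box match also begins after the annotated gene start, at position 5. Of 32851 such windows, from 27025 genes, 13.6% hold the TATA box, 20.8% the half-site, 7.15% the E-box, 10.8% the C/EBP motif and 35.7% the GC box, and 4.51% hold the kappaB motif, for which no match lay in these 3 windows. A match describes the letters alone, and no binding was measured. Sequence more than 250 bases before the gene start was not searched, so a motif missing here may lie further upstream. RefSeq windows were at hand for 6 of the 8 genes, and Nos2 and Ptgis were not among them.

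Ptges encodes microsomal prostaglandin E synthase-1, which is usually induced together with COX-2. Its level was 5.97, 6.17, 6.11, 5.76 and 6.33 on BA arrays and 6.03, 6.10, 6.17, 5.77 and 5.93 on control arrays. The groups covered nearly the same range. They averaged 6.07 ± 0.22 in BA cells and 6.00 ± 0.16 in control cells (SD, n = 5 each). They differed by 0.07 ± 0.13 (SE), with a 95% interval of -0.21 to 0.35, or 0.864-fold to 1.27-fold (adjusted p = 0.840, limma). These levels lay close to the array medians of 5.91 to 6.02, and without detection calls it cannot be judged whether the probe set measured transcript above background. The lowest Ptges level in each group fell on the array with the lowest Ptgs2 there, BA replicate 4 and control replicate 4. Other arrays did not order alike. Control replicate 3 had the highest control Ptges, 6.17, with Ptgs2 at 8.87, and control replicate 5 had the highest control Ptgs2, 10.04, with Ptges at 5.93.

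Ptgis, the prostacyclin synthase gene, had levels of 7.49, 7.36, 7.34, 7.65 and 7.18 on BA arrays and 7.34, 7.50, 7.96, 7.91 and 7.50 on control arrays. It was the 1 gene of the 7 with a lower mean in BA cells, at -0.24 ± 0.15 (SE) with a 95% interval of -0.56 to 0.09 (adjusted p = 0.582, limma). Pericyte and smooth muscle markers, of cells of the vessel wall, where prostacyclin is made, averaged 6.80 to 7.75 on BA arrays and 7.86 to 8.98 on control arrays, with 8 of 8 lower in BA cells. Their part in the Ptgis values was not tested.

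The EP2 receptor gene Ptger2 had levels of 5.86, 5.06, 5.09, 5.13 and 5.40 on BA arrays and 5.16, 5.15, 4.92, 5.04 and 5.33 on control arrays. The difference of 0.19 ± 0.16 (SE; adjusted p = 0.661, limma) came largely from BA replicate 1, without which it was 0.05. Ptger4, which encodes EP4, had levels of 6.26, 6.39, 6.49, 6.19 and 6.44 on BA arrays and 6.07, 6.82, 5.83, 5.81 and 6.02 on control arrays. Here 1 control array held the highest level and the BA arrays lay together above the other 4 control arrays. The difference was 0.24 ± 0.18 (SE; adjusted p = 0.625, limma), and 0.42 without control replicate 2. That control array also had the highest control level of the cytokine gene Il6, at 8.91 against 4.40 to 7.11 on the others. It also had the highest control means of the pan-haematopoietic markers, at 7.04 against 5.65 to 6.47, and of the neutrophil markers, at 8.11 against 6.26 to 7.54. Their part in its Ptger4 level was not tested.

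Hpgd, the gene for the main prostaglandin-inactivating enzyme, had levels of 8.44, 8.96, 8.99, 9.63 and 7.93 on BA arrays and 7.75, 8.04, 8.30, 7.75 and 8.39 on control arrays. The BA arrays ordered differently for Hpgd than for Ptgs2: replicate 4 was highest, and replicate 5 alone fell inside the control range. The means were 8.79 ± 0.64 in BA cells and 8.05 ± 0.30 in control cells (SD, n = 5 each). The difference was 0.74 ± 0.29 (SE), or 1.67-fold, with a 95% interval of 1.08 to 2.60 (adjusted p = 0.502, limma). Ptgs2 minus Hpgd was 2.95, 2.52, 2.74, -1.18 and 3.58 on BA arrays and 1.51, 1.90, 0.57, 0.66 and 1.65 on control arrays. BA arrays 1, 2, 3 and 5 were above every control array in this measure, and BA replicate 4 was below all of them. With the mean of the macrophage markers as a covariate the Hpgd difference became 1.13 (adjusted p = 0.768, limma). Its unadjusted p was 0.0258 without this covariate and 0.00292 with it (limma). The adjusted p also depends on the p-values of all other genes.

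Nos2 had levels of 6.53, 8.79, 9.16, 5.93 and 9.12 on BA arrays and 5.62, 6.07, 6.35, 6.06 and 6.41 on control arrays. BA replicates 2, 3 and 5 lay well above every control array. BA replicate 1 lay just above the highest control level, and BA replicate 4 lay inside the control range. The means were 7.91 ± 1.55 in BA cells and 6.10 ± 0.31 in control cells (SD, n = 5 each). The difference was 1.80 ± 0.63 (SE), or 3.49-fold, with a 95% interval of 1.33 to 9.14 (adjusted p = 0.482, limma). The lowest adjusted p on leaving out single arrays was 0.282, without BA replicate 4, and the difference ranged from 1.49 to 2.30. The same 4 BA arrays lay above every control array for Nos2 as for Ptgs2. On BA replicate 1 the margin was narrow for Nos2, at 6.53 against a highest control level of 6.41. For Ptgs2 it was wide, at 11.39 against 10.04.

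**Figure D2:**
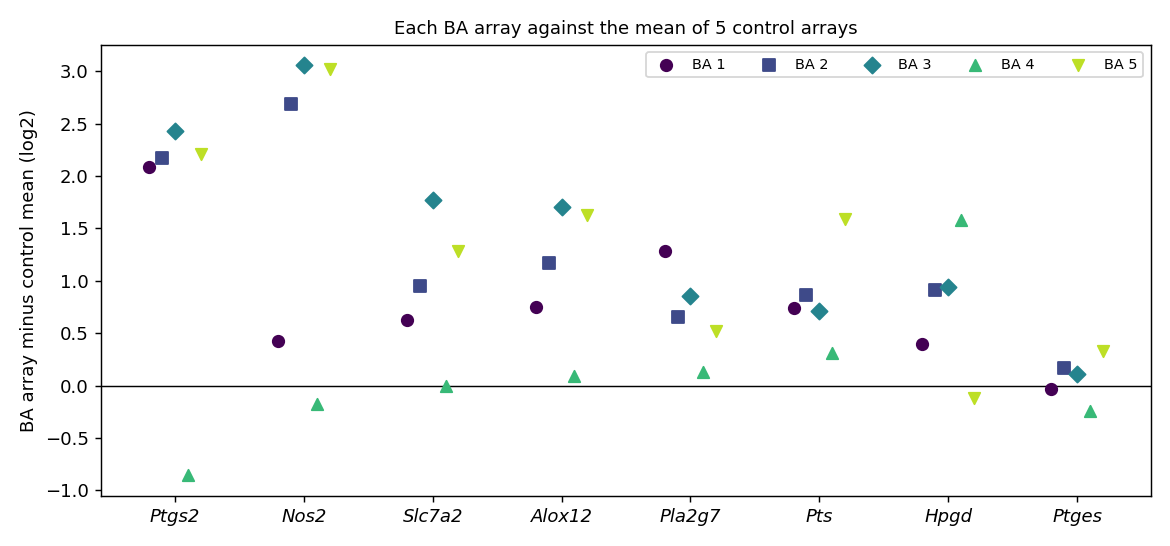
Level on each BA array minus the mean of the 5 control arrays (log2), for Ptgs2, Nos2, the 4 further pathway genes higher at an unadjusted p under 0.05 (Slc7a2, Alox12, Pla2g7 and Pts), Hpgd and Ptges, with 1 symbol per BA mouse. BA replicate 4 (triangles pointing up) lies near or below 0 for the first 5 genes, at 0.31 for Pts, and is the highest array for Hpgd, and Ptges stays within 0.33 of 0 on all 5.

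The levels of other inflammatory genes on the same arrays were as follows. Saa3, an acute-phase protein gene, was at 11.88, 12.09, 12.27, 4.80 and 12.19 on BA arrays and between 4.78 and 5.43 on control arrays. As for Ptgs2, BA replicate 4 alone among the BA arrays lay in the control range. Il1a, which encodes a cytokine that induces Ptgs2 and Nos2 in many cells, was at 4.26, 6.71, 6.23, 5.69 and 8.35 on BA arrays and between 4.06 and 4.49 on control arrays. Il1a was inside the control range on BA replicate 1, where Nos2 was at 6.53, and above it on BA replicate 4, where Nos2 was at 5.93. The part of Il1a in the Ptgs2 and Nos2 levels was not tested. Lcn2, which encodes the iron-scavenging lipocalin 2, was at 10.78, 11.05, 12.00, 8.54 and 11.74 on BA arrays and between 5.69 and 8.10 on control arrays, so that BA replicate 4 was the lowest BA array but still above every control array (adjusted p = 0.205, limma). Il1b, the gene of the cytokine interleukin 1 beta, was at 7.75, 6.95, 7.55, 7.25 and 9.61 on BA arrays and between 5.85 and 7.40 on control arrays, with BA replicates 2 and 4 in the control range. Tnf averaged 6.02 in BA cells and 5.78 in control cells (adjusted p = 0.736, limma). Il6 averaged 8.21 in BA cells and 6.41 in control cells (adjusted p = 0.509, limma). Its BA levels, from 6.70 to 8.97, overlapped the control levels, from 4.40 to 8.91.

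Macrophages and neutrophils can themselves express Ptgs2 and Nos2, and their markers were read on the same arrays. The mean of the 11 macrophage markers was 6.71, 5.98, 6.21, 6.28 and 7.59 on BA arrays and between 5.81 and 6.28 on control arrays. BA arrays 2 and 3 had macrophage means inside the control range and Nos2 levels of 8.79 and 9.16, with 3 of 11 macrophage markers above every control array on each. Of the 12 neutrophil markers, BA replicate 2 had 1 above every control array and BA replicate 3 had 0. BA replicate 1 had the second highest macrophage mean, 6 of 11 markers above every control array, and Nos2 at 6.53. No share of all genes was counted on single arrays to set beside these marker counts. The mean of the 12 neutrophil markers was 8.38, 6.97, 7.21, 8.14 and 9.46 on BA arrays and between 6.26 and 8.11 on control arrays, and again BA arrays 2 and 3 lay inside the control range. For Ptgs2 the same arrays stood at 11.48 and 11.73. With the macrophage mean as a covariate the differences were 1.24 for Ptgs2 and 1.57 for Nos2 (adjusted p = 0.789 and 0.783, limma), and with that of 11 pan-haematopoietic markers 1.34 and 1.63 (adjusted p = 0.723 and 0.71, limma). Without BA replicates 4 and 5, the arrays that stood apart for Ptgs2 and for leukocyte markers, they were 2.23 and 2.06 (adjusted p = 0.175 and 0.587). That increase follows from leaving out replicate 4, the array with the lowest Ptgs2. Without BA replicate 5 alone, the array with the highest leukocyte markers, they were 1.46 and 1.5 (adjusted p = 0.715 and 0.71). How much of the Ptgs2 and Nos2 signal came from leukocytes in the sort was not tested.

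**Figure D3:**
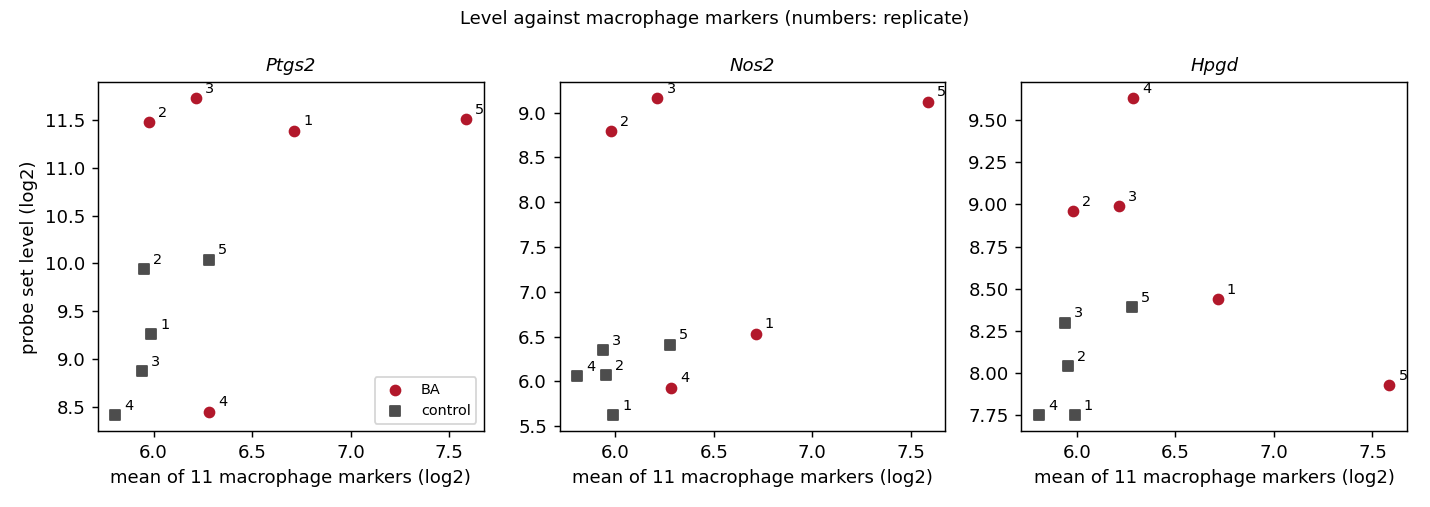
Level of Ptgs2, Nos2 and Hpgd (log2, vertical axes) against the mean of 11 macrophage markers (log2, horizontal axes) on BA arrays (red circles) and control arrays (grey squares), with replicate numbers. BA replicates 2 and 3 have macrophage means of 5.98 and 6.21, within the control range of 5.81 to 6.28, with Nos2 at 8.79 and 9.16.

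The other genes of these pathways were taken from 7 lists with 59 measured genes of 62. None passed after adjustment over all genes (limma, lowest adjusted p = 0.452). At an unadjusted p under 0.05, 4 were higher (6.78%) and 4 lower (6.78%), near the 4.13% and 5.27% of all genes, and the median difference was -0.03.

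Upstream of the cyclooxygenases, Pla2g4a, the cytosolic phospholipase that releases arachidonic acid, averaged 5.75 in BA cells and 5.72 in control cells, a difference of 0.04 ± 0.11 (SE; adjusted p = 0.909, limma). Of the 9 phospholipase genes 5 were higher (55.6%) and 4 lower on average, where 37.9% of all genes were higher. Pla2g7, which encodes the hydrolase that inactivates platelet-activating factor, was at 6.10, 5.47, 5.67, 4.95 and 5.34 on BA arrays and between 4.49 and 5.09 on control arrays. It differed by 0.69 ± 0.20 (SE; adjusted p = 0.452, limma), again with BA replicate 4 inside the control range. The secreted phospholipase gene Pla2g10 differed by -0.21 ± 0.09 (SE; adjusted p = 0.510).

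Among the 8 other measured prostanoid synthase genes the differences lay between -0.21, for the haematopoietic prostaglandin D synthase gene Hpgds, and 0.29, with none at an unadjusted p under 0.05. All 7 other prostanoid receptor genes had a lower mean in BA cells, with a median of -0.19, and the mean was lower for most genes on the arrays, since 37.9% of all genes were higher. Ptger3, which encodes EP3, averaged 5.09 ± 0.21 in BA cells and 5.43 ± 0.17 in control cells (SD, n = 5 each; adjusted p = 0.494, limma). Ptger1, which encodes EP1, averaged 5.99 ± 0.13 in BA cells and 6.27 ± 0.19 in control cells (SD, n = 5 each; adjusted p = 0.507). These levels lay near or under the array medians, and the differences were -0.34 and -0.28. Of 4 genes for prostaglandin transport and further breakdown, Ptgr1, the gene of a prostaglandin reductase, had the smallest p and averaged 7.75 ± 0.40 in BA cells and 6.89 ± 1.06 in control cells (SD, n = 5 each; adjusted p = 0.546).

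Of the 9 measured lipoxygenase and leukotriene genes, Alox12, which encodes the platelet-type 12-lipoxygenase, another enzyme that uses arachidonic acid, was at 6.67, 7.09, 7.62, 6.01 and 7.55 on BA arrays and at 5.57, 6.19, 6.63, 5.48 and 5.73 on control arrays. BA arrays 1, 2, 3 and 5 lay above every control array and BA replicate 4 among them. It differed by 1.07 ± 0.33 (SE; adjusted p = 0.461, limma). Alox12 is known from platelets, and the mean of the 4 measured megakaryocyte markers lay between 5.28 and 5.66 on BA arrays and between 5.26 and 5.74 on control arrays.

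In the nitric oxide list, 16 of 17 genes were measured, 7 higher (43.8%) and 9 lower on average, where 37.9% of all genes were higher. Slc7a2, which encodes the cationic amino acid transporter CAT2 that carries arginine to the inducible synthase, was at 7.42, 7.74, 8.56, 6.79 and 8.07 on BA arrays and at 6.77, 6.81, 6.72, 7.00 and 6.65 on control arrays. All BA arrays other than replicate 4 lay above the control range. It differed by 0.93 ± 0.28 (SE) or 1.90-fold (adjusted p = 0.452, limma). Pts, an enzyme gene of tetrahydrobiopterin synthesis, the cofactor of nitric oxide synthases, averaged 8.09 ± 0.47 in BA cells and 7.25 ± 0.82 in control cells (SD, n = 5 each; adjusted p = 0.529). Gch1, the gene of the first enzyme of that synthesis, averaged 7.35 ± 0.76 in BA cells and 7.99 ± 1.08 in control cells (SD, n = 5 each; adjusted p = 0.652) and is named here after its values were seen, as is Pla2g4a. The neuronal and endothelial synthase genes Nos1 and Nos3, the relatives of Nos2, differed by -0.06 ± 0.10 and -0.03 ± 0.14 (SE) and are likewise named afterwards.

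Downstream of nitric oxide, Gucy1b1, the gene of the beta subunit of its receptor guanylate cyclase, was at 4.16, 3.88, 4.17, 4.08 and 3.88 on BA arrays and at 4.26, 4.63, 4.41, 4.19 and 4.27 on control arrays. It was the 1 gene of the 59 for which the groups did not overlap, as for 1.67% of all genes, and it differed by -0.32 ± 0.11 (SE; adjusted p = 0.484, limma). All these levels lay under the array medians of 5.91 to 6.02, and without detection calls it cannot be judged whether they rose above background. Gucy1b1 is a gene of smooth muscle and pericytes, whose markers were lower in BA cells as given for Ptgis, and their part in this value was not tested. Of the 6 genes of nitric oxide response, 5 were lower and 1 higher (16.7%) on average, where 37.9% of all genes were higher.

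**Figure D4:**
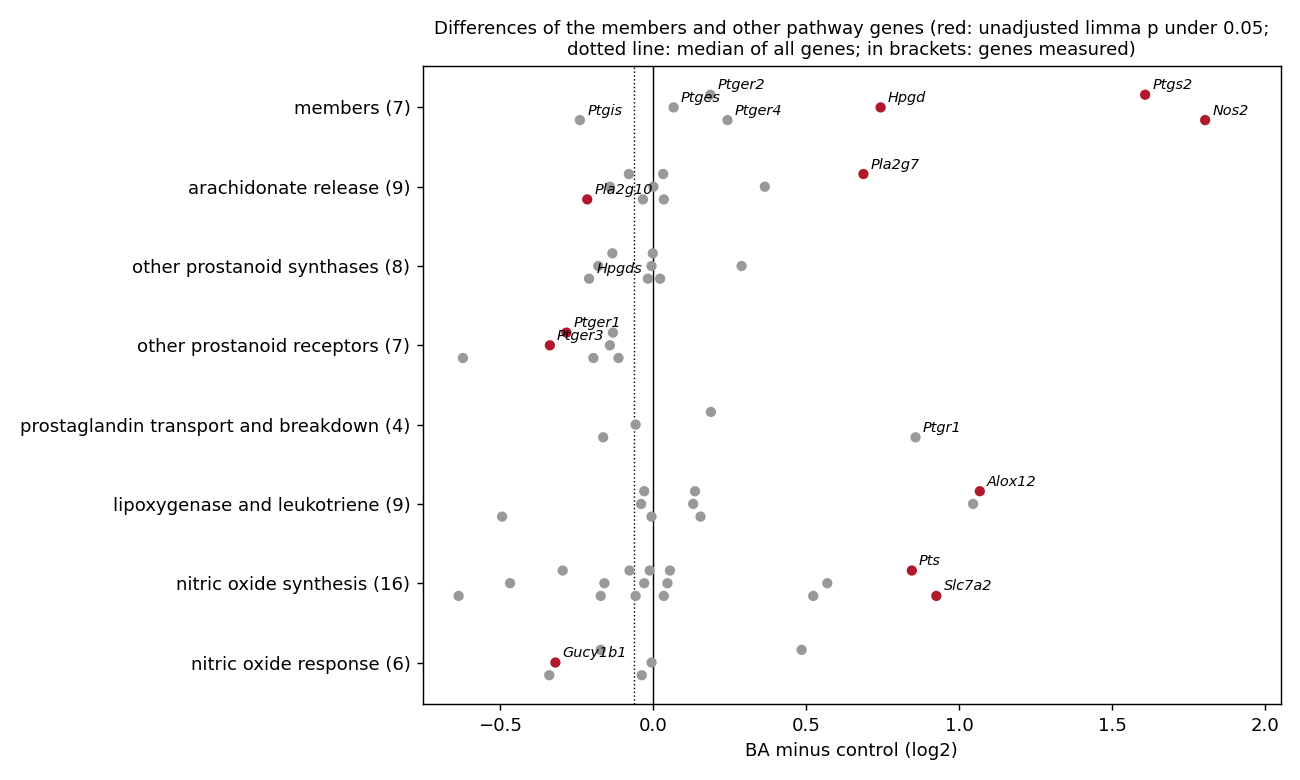
BA minus control difference (log2, horizontal axis) of the 7 genes (top row, labelled members) and of the 59 other pathway genes by list, 1 point per gene, red where the unadjusted limma p is under 0.05. Nos2 and Ptgs2 lie at 1.80 and 1.61, beyond every gene of the other lists, the furthest of which is Alox12 at 1.07. Members and lists were chosen with earlier results of these data known.

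The genes whose levels followed each of 3 members most closely over the 10 arrays were found by Pearson's r across these arrays, as a description with no test. Predicted genes, genes with only a clone name, olfactory and vomeronasal receptor genes, small RNA genes and ribosomal pseudogenes were left out by symbol. The highest values reflect the split between the groups and BA replicate 4 as well as variation within groups. Foxn2 (r = 0.949), Asic3 (0.937) and the acute-phase gene Saa1 (0.934) followed Ptgs2. Cxcl3, a neutrophil-attracting chemokine (0.965), Mmp10, a stromelysin (0.948), and Slpi, a secreted protease inhibitor (0.946), followed Nos2. Cbl (0.923), Litaf (0.918) and Tll1 (0.890) followed Ptges.

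Across single arrays left out in turn, the Ptgs2 difference ranged from 1.38 to 2.22, that of Nos2 from 1.49 to 2.30 and that of Hpgd from 0.53 to 0.96. The count of the 7 genes at an unadjusted p under 0.05 was 3 with all arrays. It was 1 without BA replicate 2, BA replicate 3 or control replicate 4, where Nos2 was the gene that met it.

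**Figure D5:**
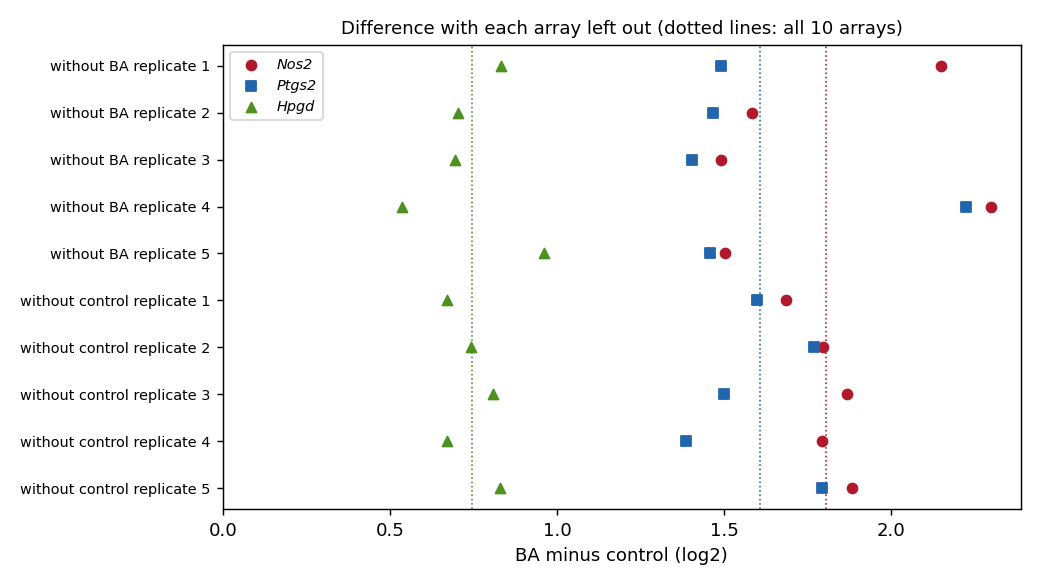
BA minus control difference (log2, horizontal axis) of Nos2, Ptgs2 and Hpgd with each of the 10 arrays left out (rows), and with all arrays (dotted lines). The differences stay above 0 in every row, and leaving out BA replicate 4 gives 2.30 for Nos2, 2.22 for Ptgs2 and 0.53 for Hpgd.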

How the data were processed

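The values are the authors' deposited log2 levels, 35557 probe sets on 10 arrays with 0 missing. The submitters' processing notes name GCRMA (no version given), which subtracts a background predicted from probe sequence before normalization and summary. The log2 base was inferred from the range, 1.21 to 13.7. Differences of dim probe sets depend on the background subtracted, and amplification from few cells adds spread. No scanner files or detection calls were used. Precision is limited by the number of arrays.

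Probe sets were named from the platform annotation (21789 with 1 symbol, 1621 with several, 12147 with none), and the brightest probe set stood for each of 19938 genes. BA and control were set against each other with limma (version 3.58.1, run in R 4.3.3; lmFit, eBayes, two-sided, no covariate), with Benjamini-Hochberg adjustment over all genes at 0.05. The script was tested on simulated data. The members, lists and tests were chosen with earlier results of these data known. Named were all members, the list genes at an unadjusted p under 0.05 or with groups apart (otherwise the smallest p), the 3 closest patterns for 3 members, and 6 inflammatory genes as context for single arrays. Marker lists served as context too: mast cell markers averaged 4.57 to 5.59 on BA arrays and 4.62 to 5.31 on control arrays. Same-numbered BA and control arrays had correlations of deviations from -0.10 to 0.11, so the numbers were not taken to pair mice.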

Additional observations from a re-analysis of the deposited data

Results flagged for a closer look

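Among 34 groups of 5 arrays examined, for the 7 genes and the 10 other pathway genes that the naming rule gave, 2 held an array far from the rest, and chance alone gives about 1.7, or 1 in 20. Ptgs2 on BA replicate 4, at 8.45, lay far below the other BA arrays (11.39 to 11.73). Ptger4 on control replicate 2, at 6.82, lay far above the other control arrays (5.81 to 6.07).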

How the results depend on the processing

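Of 350 repeats of single-gene differences over 21 alternatives, 348 kept their direction and stayed on the same side of the threshold. The 2 exceptions were Ptges, at -0.001 with the pan-haematopoietic and -0.021 with the macrophage covariate. All of these genes missed the threshold in the main fit, and the pathway genes among them were named by their values in these data. Such agreement was thus largely set in advance. None of the 7 genes passed in any alternative. Of all genes, 1 passed. None did with the replicate number as a block, among genes above the median level or with the macrophage covariate, 2 did with Xist or the pan-haematopoietic covariate, 11 without BA replicates 4 and 5, and 0 to 13 with single arrays left out. The block changed no call among the 7 genes. The count of the 7 at an unadjusted p under 0.05 was 3, 1 (Hpgd) with the macrophage covariate and 1 to 4 with single arrays left out. All genes at an unadjusted p under 0.05 and lower in BA cells numbered 1051, against 369 among genes above the median level (fewer genes tested), 671 with the pan-haematopoietic and 569 with the macrophage covariate, 436 without BA replicates 4 and 5, and 676 to 1512 with single arrays left out. Their higher counterparts, 824, ranged from 625 to 1001 over all these settings. Apart from the smaller gene and array sets, the cause was not tested. The macrophage covariate and the joint removal of BA replicates 4 and 5 were chosen after seeing the data. Signal over background could not be judged without detection calls.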
